A study of Dirofilaria immitis with 12 samples.

Results

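The medium of cultured larvae of the Yazoo strain of the dog heartworm *Dirofilaria immitis* was compared between the fourth larval stage (L4) and the third (L3). The members were all named miRNAs with a count in at least 1 of the 6 Yazoo libraries, which were 129 of the 182 miRNAs counted over all 12 libraries. Yazoo is resistant to macrocyclic lactones, the drugs used to prevent heartworm disease, and the other strain of the study, Missouri, is susceptible. Infective L3 were dissected from *Aedes aegypti* mosquitoes, washed, and kept at 37 °C in 5% CO2, and the cell-free medium was changed every 48 h. Medium of days 2 and 4 was taken as L3-derived and medium of days 8 and 12 as L4-derived, with 3 libraries for each stage and strain and with dead larvae removed at each change. No drug treatment of the larvae is described. The stage was given by the day of collection, so development and time in culture cannot be told apart. The number of living larvae and the RNA released by each larva cannot be told apart either. The paper describes medium of both stages taken from the same cultured larvae and lists 3 Yazoo cultures. The sources used here do not tie a library number to a culture, so the main test treated the 6 Yazoo libraries as unpaired. The p-values given here measure the spread between libraries, which may be partly technical.

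miRNAs are short RNAs cut from the arms of a hairpin precursor, and they repress messenger RNAs that pair with their bases 2 to 8, the seed. Worms release some of them into their surroundings, free or inside vesicles, which is why those of filarial parasites are found in culture medium and in host blood. In *Caenorhabditis elegans* the passage from a larval stage to the next is timed by lin-4 and, later in development, by let-7.

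The Yazoo L3 libraries were much smaller than the L4 libraries. They held 13394, 13502 and 5230 counts in all, and the L4 libraries held 61772, 180153 and 31335. The values called normalized counts here are the deposited ones, which are counts divided by a size parameter of the library, and shares are percentages of the library total. The lowest count usually listed was 5, which was worth 8.74 to 20.04 normalized counts in the L3 libraries and 1.12 to 5.16 in the L4 libraries, so a listed 0 allows a higher level in L3 than in L4. These limits cover counting error only.

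L4 replicate 2, the deepest Yazoo library, stood apart from the other 5. Between 38.9% and 46.4% of its counts would have had to be moved to other miRNAs to give the make-up of another Yazoo library. The other 5 libraries differed from each other by only 8.87% to 14.3%, over 10 pairs, and the L3 libraries were as far from L4 replicates 1 and 3 (8.87% to 14.3%) as from each other (9.39% to 12.0%). Over all 12 libraries the make-up nearest to that of Yazoo L4 replicate 2 was that of Missouri L4 replicate 3, at 16.6%, and the next was at 33.97%. These were also the deepest libraries of their groups, with 180153 and 261544 counts, and the part of depth in the result was not tested. The fold changes and list values below that rest on Yazoo L4 replicate 2 are therefore also given without it.

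The miRNAs that filled the libraries were few. The 4 leading ones took 83.1% to 86.4% of the counts in the L3 libraries and 91.5%, 79.6% and 87.5% in L4 replicates 1, 2 and 3. The mature sequences of these and of a further pair are printed here from the deposited table, 5′ to 3′ and with T for U, because they show a family that shares its seed (in capitals) beside the timing miRNAs lin-4 and let-7. The prefix of a name gives the worm whose miRBase entry was matched (bma for *Brugia malayi*, asu for *Ascaris suum*), and the suffix gives bases added, removed or exchanged against that entry.
bma-miR-100a_R+1: aACCCGTAgtttcgaacatgtgt
bma-miR-100b_R+2: aACCCGTAgatccgaacttgtgtt
bma-miR-100c_R+1_1ss12CT: aACCCGTAgaattgaaatcgtgt
bma-miR-100d_R+1: tACCCGTAgctccgaatatgtgt
bma-lin-4: tCCCTGAGacctctgctgcga
asu-let-7-5p: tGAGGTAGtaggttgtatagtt

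The miR-100 family, known in animals for its conservation and in *C. elegans* as the mir-51 family, held most of the counts at both stages. Its 6 counted members took 76.6%, 75.9% and 69.0% of the L3 libraries and 80.5%, 52.4% and 67.7% of the L4 libraries. The mean was 73.8% ± 4.22 (SD, n = 3) in L3 and 66.9% ± 14.0 (SD, n = 3) in L4, and 74.1% in L4 without replicate 2, so the stages overlapped and the lower L4 mean came from that library. None of the 6 members was called, and none was separated between the stages.

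**Figure D1:**
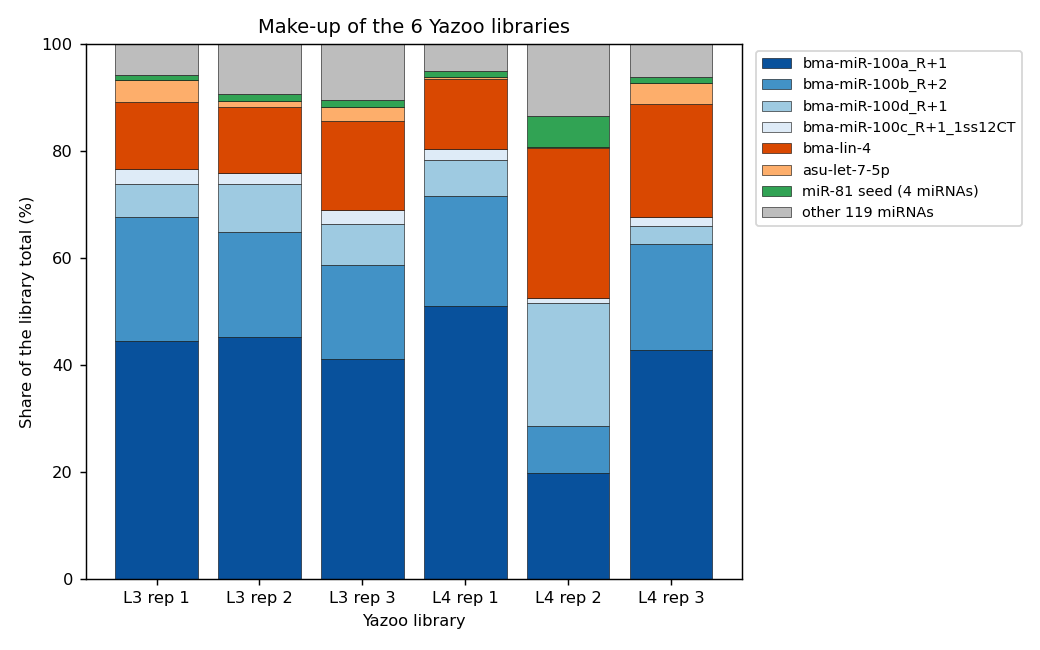
Each bar is a Yazoo library and gives the share of its counts (%, vertical axis) taken by the leading miRNAs. L4 replicate 2 has less bma-miR-100a_R+1 (19.7%) and more bma-miR-100d_R+1 (22.8%) and bma-lin-4 (28.1%) than any other bar, while the other 5 bars are alike.

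bma-miR-100a_R+1 was the leading miRNA of 5 libraries. Its share was 44.5%, 45.3% and 41.1% in L3, and 51.1%, 19.7% and 42.8% in L4 replicates 1, 2 and 3. bma-miR-100b_R+2 took 23.2%, 19.5% and 17.6% in L3 and 20.6%, 8.92% and 19.8% in L4. Their ratio hardly moved, since bma-miR-100b_R+2 had 0.403 to 0.523 counts for each count of bma-miR-100a_R+1 in all 6 libraries. bma-miR-100d_R+1 did not keep such a ratio, although its hairpin lies only 794 bases from that of bma-miR-100a_R+1 on the same strand of the same contig. It had 0.139, 0.200 and 0.188 counts for each of bma-miR-100a_R+1 in L3, and 0.132, 1.16 and 0.0785 in L4. The highest and the lowest of these 6 ratios both belong to L4 libraries. In Missouri the same ratio was 0.139, 0.287 and 0.101 in L3 and 0.0999, 0.0954 and 0.645 in L4, where replicate 3 is the library nearest in make-up to Yazoo L4 replicate 2.

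No miRNA passed the test of L4 against L3. With edgeR's quasi-likelihood test and Benjamini-Hochberg adjustment, 0 of 129 (0%) were called at an adjusted p of 0.05, and the smallest adjusted p was 0.579. An unadjusted p under 0.05 was found for 6 miRNAs higher in L4 (4.65% of 129) and for 0 lower in L4 (0%). DESeq2 also called 0, with 1 miRNA at an unadjusted p under 0.05, and limma called 0, with 7 higher and 0 lower at a pseudocount of 1 and 7 higher and 1 lower at a pseudocount of 10. The 6 were bma-lin-4, bma-miR-81_R+1, bma-miR-87a_R+1, bma-miR-5360_R-1, asu-miR-993-3p and bma-miR-9-3p. A share of 4.65% is no more than a threshold of 0.05 lets through without any stage difference. The directions also rest on the scaling, since with edgeR's TMM scaling 0 were higher and 4 were lower at the same unadjusted threshold.

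The libraries of 13 miRNAs did not overlap between the stages. On the deposited normalized counts, 12 miRNAs (9.3% of 129) had all 3 L4 values above all 3 L3 values, and 1 (0.775%) had them all below. With 3 libraries against 3, an exact permutation test of a single miRNA cannot go below p = 0.1. Without a stage difference, untied values would thus separate, in either direction, with a probability of 0.1. The 13 of 129 are near that share, although miRNAs at 0 in libraries of both stages could not separate. On shares of the library total, 2 miRNAs (1.55%) were above in L4 and 2 (1.55%) were below. Those above on shares were bma-miR-87a_R+1 and bma-miR-5360_R-1, and those below were PC-5p-7293_584 and PC-3p-5671_782, which are predicted candidates. The mature sequences of the 12 not yet shown, of the 13 separated on normalized counts, are given here with the seed in capitals. The other one is bma-lin-4.
bma-miR-71_R+4: tGAAAGACatgggtagtgagacg
bma-miR-81_R+1: tGAGATCAttgtgaaagctatt
asu-miR-81b-3p_1ss18TC: tGAGATCAtgccacatccgtct
PC-3p-1604_3569: tGAGATCAcgttacatccgtct
bma-miR-87a_R+1: gTGAGCAAagtttcaggtgttc
bma-miR-5843: aTGAGCAActttgccttcgttga
bma-miR-92_R+2: tATTGCACtcgtcccggcctga
bma-miR-228: aATGGCACtagatgaattcacgg
bma-miR-5360_R-1: aCGAATCGtcgaatcggatgtct
asu-miR-9-5p: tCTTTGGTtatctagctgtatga
asu-miR-993-3p: tAAGCTCGtctctacaggcagg
PC-5p-7293_584: cCTGAGCAggatgaagcc

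**Figure D2:**
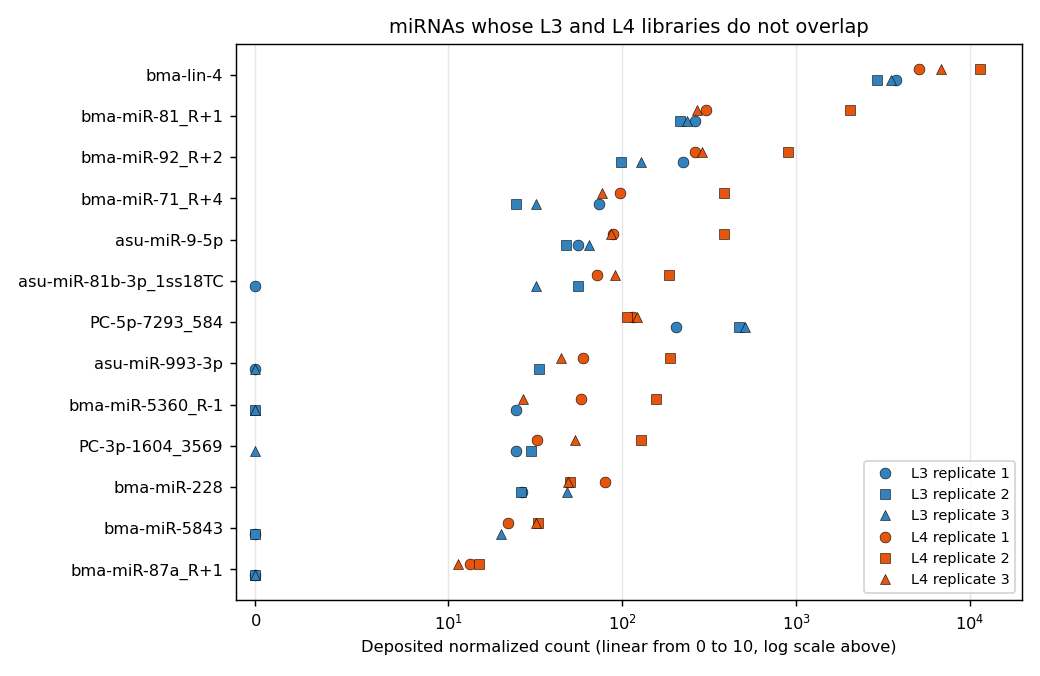
Each point is a Yazoo library, with the deposited normalized count on the horizontal axis (linear up to 10, logarithmic above), for the 13 miRNAs whose stages do not overlap. L4 replicate 2 (orange square) is the highest point for 11 of the 13, and PC-5p-7293_584 is the only one with its L4 points below its L3 points.

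bma-lin-4, the worm counterpart of miR-125 and the first timer of larval stages in *C. elegans*, was the most abundant of the separated miRNAs. It was at 3737, 2927 and 3492 normalized counts in L3 and at 5106, 11400 and 6834 in L4. Every L4 library was above every L3 library. The means were 3385 ± 416 (SD, n = 3) and 7780 ± 3252 (SD, n = 3), a ratio of 2.30, and 1.76 without L4 replicate 2. The edgeR log2 fold change was 1.20 (SE 0.577), with an unadjusted p of 0.0375 and an adjusted p of 0.579. On shares the stages overlapped, with 12.6%, 12.4% and 16.7% in L3 and 13.1%, 28.1% and 21.1% in L4. The other arm of its hairpin, asu-lin-4-3p_2ss5TC21GT, made up 0.123% of the counts of the pair over the 6 libraries.

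asu-let-7-5p, the later timer, varied more within the stages than between them. Its counts were 544, 155 and 133 in L3 and 209, 233 and 1200 in L4, although the L4 libraries were the larger. As a share it took 4.06%, 1.15% and 2.54% of the L3 libraries and 0.338%, 0.129% and 3.83% of the L4 libraries. L4 replicates 1 and 2 were below all L3 libraries, and L4 replicate 3 was within their range. The log2 fold change with edgeR was -0.50 (SE 0.970), with an adjusted p of 0.719, and it was 0.03 without L4 replicate 2 and 0.24 without L3 replicate 1. Without L4 replicate 3 it was -2.86, with an adjusted p of 0.569, so this library held the L4 mean near that of L3.

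let-7 and bma-miR-100b_R+2 are neighbours in the genome, with hairpins 152 bases apart on the same strand. The mature let-7 gave 0.175, 0.0588 and 0.145 counts for each count of bma-miR-100b_R+2 in L3, and 0.0164, 0.0145 and 0.194 in L4. Against bma-lin-4 it gave 0.323, 0.0926 and 0.153 in L3, and 0.0258, 0.00460 and 0.181 in L4. L4 replicates 1 and 2 were the lowest of the 6 for both ratios, and L4 replicate 3 was the highest for the first. In Missouri the ratio of let-7 to bma-miR-100b_R+2 was 0.0791, 0.156 and 0.187 in L3 and 0.0320, 0.00928 and 0.0162 in L4, where the stages did not overlap. The difference in let-7 between the stage comparisons of the strains had a log2 value of 2.12 (SE 1.38) with edgeR, at an adjusted p of 1.00.

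The hairpins of lin-4 and let-7 are printed with the deposited strand, in lower case with both counted arms in capitals, because both arms of each were found in the medium. They are 90 bases on the + strand and 81 bases on the - strand, and the genome build is not given in the sources used here.
bma-lin-4 hairpin: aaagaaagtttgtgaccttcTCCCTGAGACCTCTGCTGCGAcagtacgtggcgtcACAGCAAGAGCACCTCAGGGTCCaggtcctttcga
asu-let-7-5p hairpin: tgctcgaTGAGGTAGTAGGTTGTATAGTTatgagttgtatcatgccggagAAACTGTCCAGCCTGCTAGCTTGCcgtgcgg

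**Figure D3:**
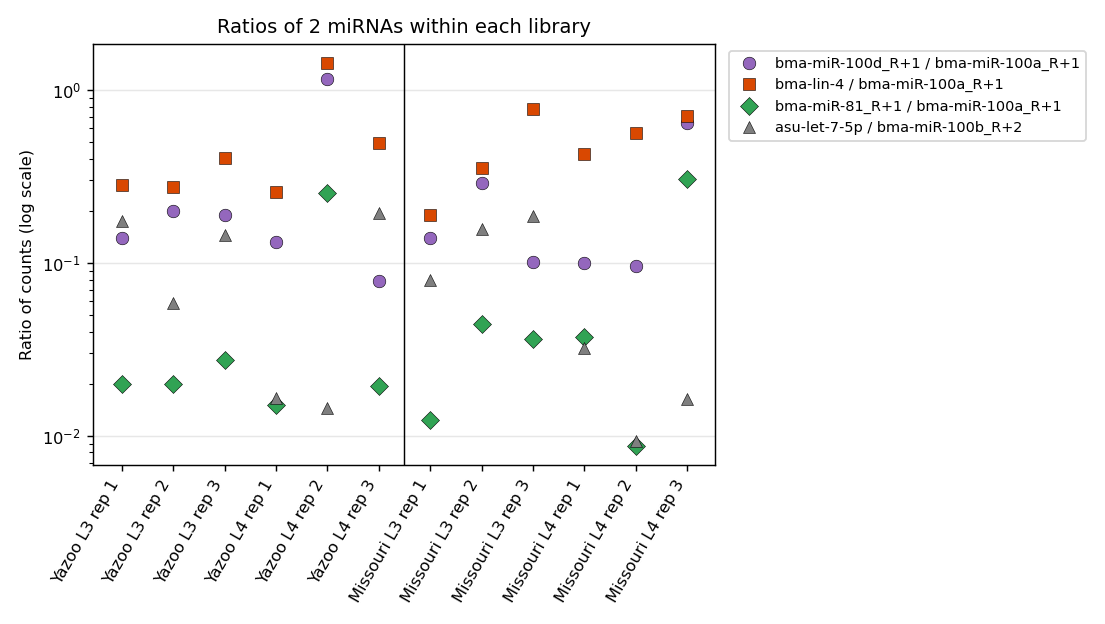
Each point is the ratio of the counts of a pair of miRNAs within a library (vertical axis, log scale), for the 6 Yazoo libraries on the left and the 6 Missouri libraries on the right. bma-miR-100d_R+1, bma-lin-4 and bma-miR-81_R+1 are high against bma-miR-100a_R+1 in Yazoo L4 replicate 2, the first and last of them also in Missouri L4 replicate 3, and let-7 is low against bma-miR-100b_R+2 in L4 libraries other than Yazoo L4 replicate 3.

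Of the 5 miRNAs of the timing list (both arms of lin-4 and of let-7, and the let-7 form cbn-let-7_R+1), 0 were called, and 1 was separated with L4 above on normalized counts (9.3% of all 129) and 0 on shares. Their median log2 fold change over the 4 counted at both stages was 0.36, beside 0.37 over all 48 miRNAs counted at both stages. Without L4 replicate 2 the medians were 0.43 and 0.24, the latter over the 44 miRNAs then counted at both stages. cbn-let-7_R+1 holds all 22 bases of asu-let-7-5p and 1 more, so the reads of each cannot be fully told apart.

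The miRNAs with the seed GAGATCA, the mir-80 family of *C. elegans*, were mostly separated. Of 4 counted members, 3 had L4 above L3 on normalized counts, beside 9.3% of all 129, but 0 did on shares. Together they took 0.963%, 1.27% and 1.28% of the L3 libraries and 1.04%, 5.78% and 1.28% of the L4 libraries. The mean share was 1.17% ± 0.180 (SD, n = 3) in L3 and 2.70% ± 2.67 (SD, n = 3) in L4, and without replicate 2 it was 1.16% in L4. Most of it was bma-miR-81_R+1, at 262, 213 and 237 normalized counts in L3 and 301, 2025 and 269 in L4, for which edgeR gave a log2 fold change of 1.87 (SE 0.917, unadjusted p 0.0419, adjusted p 0.579). The L4 mean was 3.65 times the L3 mean, and 1.20 times without L4 replicate 2. Within libraries, bma-miR-81_R+1 had 0.0151 to 0.0274 counts for each of bma-miR-100a_R+1 in 5 Yazoo libraries and 0.253 in L4 replicate 2, and in Missouri L4 replicate 3 it had 0.305.

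asu-miR-81b-3p_1ss18TC was counted in 5 libraries, at 0, 55.9 and 32.1 normalized counts in L3 and at 71.9, 185 and 90.9 in L4. Its 0 in L3 replicate 1 stands beside a value of 11.1 for 5 counts there, so that library was below the other L3 libraries. The predicted candidate PC-3p-1604_3569 carries the same seed, at 24.4, 29.7 and 0 in L3 and 32.2, 128 and 53.7 in L4. The stages touched closely in this case, with L4 replicate 1 just above L3 replicate 2. The last member, PC-3p-48455_63, shares its first 21 bases with asu-miR-81b-3p_1ss18TC, lies in the same hairpin, and was found in L4 replicate 2 alone.

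The hairpin of PC-3p-1604_3569 is shown because it produced counts from both arms, the other being PC-5p-114173_22. Both are in capitals in its 101 bases (+ strand), and the 5p arm made up 2.24% of the counts of the pair.
PC-3p-1604_3569 hairpin: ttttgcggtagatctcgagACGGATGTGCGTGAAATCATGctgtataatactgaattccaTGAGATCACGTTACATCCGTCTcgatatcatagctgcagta

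Only bma-miR-87a_R+1 was counted in all L4 libraries and in no L3 library. Its counts were 0, 0 and 0 in L3 and 21, 67 and 11 in L4. As shares of the L4 libraries these were nearly equal, at 0.0340%, 0.0372% and 0.0351%. At the same share the L3 libraries would hold 4.85, 4.89 and 1.89 counts, under the lowest count usually listed. On normalized counts, the L4 mean of 13.2 was above the value of 5 counts in L3 replicates 1 (11.1) and 2 (8.74). It was below that value in L3 replicate 3 (20.04). Whether absence from L3 medium was detectable at this depth therefore rests on the scaling, and on shares it was not. The unadjusted p with edgeR was 0.0365 and the adjusted p 0.579, and no fold is given against libraries that are all at 0. miR-87 and bma-miR-5843 share the seed TGAGCAA, which worms and insects hold in common. bma-miR-5843 was at 0, 0 and 20.04 normalized counts in L3 and at 22.1, 32.6 and 32.01 in L4, with L3 replicate 3 at exactly 5 counts. bma-miR-87b_R+2 went the other way, with 6 counts in L3 replicate 2 and 0 in the other 5 libraries. The 3 miRNAs together took 0%, 0.0444% and 0.0956% of the L3 libraries and 0.0907%, 0.118% and 0.134% of the L4 libraries, which overlapped.

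The lifespan and stress list holds miRNAs that alter survival or stress resistance in *C. elegans*, such as miR-71, miR-34, miR-228 and miR-239. All 9 of its counted members had a higher L4 mean on normalized counts, beside 75.2% of all 129, and 6 of 9 did without L4 replicate 2, beside 47.3%. The 32 miRNAs counted in L4 replicate 2 alone are at 0 without it and enter these values as not higher. Over the 97 still counted, 61 were higher. The list members not higher were asu-miR-71-3p, asu-miR-34-3p_L-2_2ss11AG12CT and bma-miR-239-3p_1ss10CT, all counted in L4 replicate 2 alone. In no L3 library were 5 of the 9 members counted, nor were 64 of all 129, so their higher L4 mean was fixed by that. Of the 9, 0 were called, and 2 were separated with L4 above on normalized counts (9.3% of all 129) and 0 on shares. The median log2 fold change over the 4 members counted at both stages was 2.23, beside 0.37 over all 48, and without L4 replicate 2 it was 0.79, beside 0.24. The list took 0.538%, 0.400% and 0.497% of the L3 libraries and 0.680%, 2.43% and 0.565% of the L4 libraries, every L4 library above every L3 library. The margin was narrow, from 0.538% in L3 replicate 1 to 0.565% in L4 replicate 3. Of the latter, 0.0191% was asu-miR-83-5p_1ss15TA, at 6 counts. Its pooled L4 share would give only 0.588, 0.593 and 0.230 counts in the L3 libraries, where it was listed at 0.

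bma-miR-71_R+4, which promotes longevity in *C. elegans* from neurons, was the separated member of this list with the most counts. Its normalized counts were 73.2, 24.5 and 32.1 in L3 and 97.1, 386 and 76.4 in L4. The lowest L4 value lay only just above the highest L3 value. The edgeR log2 fold change was 2.11 (SE 1.28) with an adjusted p of 0.579, and the L4 mean was 4.31 times the L3 mean, or 2.01 times without L4 replicate 2. On shares the stages overlapped, at 0.246%, 0.104% and 0.153% in L3 and 0.249%, 0.952% and 0.236% in L4. bma-miR-228, a glial miRNA in *C. elegans*, was at 26.6, 26.2 and 48.1 normalized counts in L3 and 79.5, 49.9 and 48.5 in L4. It was the separated miRNA with the smallest gap, and the separation was lost on shares, at 0.0896%, 0.111% and 0.229% in L3 and 0.204%, 0.123% and 0.150% in L4. bma-miR-239-5p reached 482 normalized counts in L4 replicate 2 and lay between 24.1 and 73.2 in the other 5 libraries.

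The muscle and nerve list showed no common direction. It holds miR-1 and miR-133, which act in muscle, and miR-124, miR-9 and miR-153, which are nerve miRNAs in many animals. Of 9 counted members, 0 were called, and 1 was separated with L4 above on normalized counts (9.3% of all 129) and 0 on shares. A higher L4 mean was found for 7 of 9, beside 75.2% of all 129, and for 2 of 9 without L4 replicate 2, beside 47.3%. Among the members then not higher, asu-miR-1-5p_R-1_1ss12AG, bma-miR-9-3p, bma-mir-153-p5 and bma-miR-153_R+1 were counted in L4 replicate 2 alone. In this list too, 5 of the 9 were counted in no L3 library, which fixed their direction over all 6 libraries. Together the 9 members took 0.597%, 0.548% and 1.26% of the L3 libraries and 0.468%, 1.65% and 0.584% of the L4 libraries. ppc-miR-1_R+1, the highest of them in L3, was at 75.4, 82.2 and 180 normalized counts in L3 and 85.8, 216 and 92.9 in L4. The stages overlapped, with an edgeR log2 fold change of 0.23 (SE 1.23) and an adjusted p of 0.909.

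asu-miR-9-5p was the separated member of that list. Its normalized counts were 55.4, 47.2 and 64.1 in L3 and 88.3, 385 and 85.7 in L4. The L4 mean was 3.35 times the L3 mean, and 1.57 times without L4 replicate 2, and edgeR gave a log2 fold change of 1.75 (SE 1.23) with an adjusted p of 0.579. bma-miR-9-3p, from the 3p arm of a miR-9 hairpin, had 147 counts in L4 replicate 2 and 0 in the other 5 libraries. At its share there, L4 replicate 1 would have held 50.4 counts, well above the lowest count usually listed, and the L3 libraries would have held 10.9, 11.02 and 4.27.

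Some mature worm miRNAs are shared with vertebrates, so the sequence alone does not give their source. The 5 listed ones (let-7, miR-1, miR-9, miR-124 and miR-7) took 4.54%, 1.70% and 4.00% of the L3 libraries and 0.785%, 1.66% and 4.44% of the L4 libraries. let-7 was the larger part of this in every library but L4 replicates 1 and 2, and the stages overlapped. For bma-miR-7_R+1_1ss10TA, only a run of 14 of its 24 bases was found in the deposited hairpin, and for asu-miR-9-5p 22 of 23. asu-let-7-5p and bma-miR-124_R-1 were found whole in theirs. The source of these sequences was not tested. The list is not complete, since it leaves out the miR-100 family, which is conserved in animals and held most of the counts. The shares of the list are therefore no upper limit on the counts of uncertain source.

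The miRNAs found in filarial worms (such as bma-miR-5360_R-1, bma-miR-5364 and bma-miR-5866) were low. All 7 counted sequences had a higher L4 mean, beside 75.2% of all 129, and 3 of 7 did without L4 replicate 2, beside 47.3%. Among those then not higher, bma-miR-5361_1ss11CT, bma-miR-5363-5p_1ss18CT and bma-miR-5363-3p_L+1R-1_1ss11AG were counted in L4 replicate 2 alone. The higher L4 mean of these 3 over all 6 libraries was fixed by their absence from L3. Of the 7, 1 was separated with L4 above, beside 9.3%, and 0 were called. bma-miR-5360_R-1 had 11, 0 and 0 counts in L3 and 92, 692 and 26 in L4. It was above on shares too, by a narrow margin, at 0.0821%, 0% and 0% in L3 and 0.149%, 0.384% and 0.0830% in L4. The edgeR log2 fold change was 3.27 (SE 1.63), with an unadjusted p of 0.0449 and an adjusted p of 0.579. The L4 mean was 9.87 times the L3 mean, and without L4 replicate 2 it was 5.22 times, with a log2 fold change of 2.35 and an adjusted p of 0.638. The L3 mean rests on replicate 1 alone. A 0 in L3 replicates 2 and 3 stands beside values of 8.74 and 20.04 for 5 counts, so both ratios could be smaller. bma-miR-5866 overlapped, with 43.7 normalized counts in L3 replicate 2, 0 in the other L3 libraries, and 6.94, 29.7 and 10.3 in L4.

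Of the remaining separated miRNAs, bma-miR-92_R+2 belongs to the family of *C. elegans* mir-235, which holds larvae in arrest after hatching. It was at 224, 97.9 and 128 normalized counts in L3 and at 262, 902 and 288 in L4. The L4 mean was 3.23 times the L3 mean, and 1.83 times without L4 replicate 2. The edgeR log2 fold change was 1.69 (SE 1.06), with an adjusted p of 0.579. asu-miR-993-3p was counted in L3 replicate 2 alone among the L3 libraries, at 33.2 normalized counts, and at 59.3, 189 and 44.4 in L4, with a log2 fold change of 3.07 (SE 1.54, unadjusted p 0.0464, adjusted p 0.579) by edgeR. Its L4 mean was 8.80 times the L3 mean, and without L4 replicate 2 it was 4.68 times, with an edgeR log2 fold change of 2.16 and an adjusted p of 0.638. Its 0 in L3 replicate 3 stands beside a value of 20.04 for 5 counts in that library.

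The miR-2 and miR-281 groups lay near the lowest counts. The 4 miR-2 sequences were never above 24.1 normalized counts, and bma-miR-2a_R+1, whose hairpin lies 3253 bases from that of miR-71, was counted in 3 libraries with 5 to 35 counts. The 3 sequences of the miR-281 hairpin took 0% to 0.134% of the L3 libraries and 0.0255% to 0.0805% of the L4 libraries, and bma-miR-281-5p_1ss11TC, counted in 5 libraries, led them. No member of these groups was separated or called.

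PC-5p-7293_584 was the miRNA whose L4 values all lay below its L3 values. It is a predicted candidate with no match among known miRNAs, and the study named it from these libraries, so its place among the leading candidates is not independent evidence. Its normalized counts were 204, 467 and 509 in L3 and 115, 107 and 121 in L4. The L4 libraries lay close together, and L3 replicate 1 was nearer to them than to the other L3 libraries. The means were 393 ± 165 (SD, n = 3) and 114 ± 6.99 (SD, n = 3), with the L3 mean 3.44 times the L4 mean. The edgeR log2 fold change was -1.78 (SE 1.17, unadjusted p 0.127, adjusted p 0.579). The separation held on shares, at 0.687%, 1.98% and 2.43% in L3 and 0.295%, 0.264% and 0.373% in L4. L4 replicate 2 did not stand apart here, and without it the L4 mean was 118 normalized counts.

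The hairpin deposited for PC-5p-7293_584 is shown because the mature sequence was not found in it whole. A run of 17 of its 18 bases was found, in capitals in the 87 bases (+ strand). The predicted free energy of this hairpin was -22.7 kcal/mol, beside a median of -33.7 for the 63 known miRNAs.
PC-5p-7293_584 hairpin: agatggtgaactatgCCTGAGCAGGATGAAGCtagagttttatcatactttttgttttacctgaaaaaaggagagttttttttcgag

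PC-3p-5433_825, the other candidate that the study named, overlapped between the stages. It was at 182, 276 and 377 normalized counts in L3 and at 151, 656 and 180 in L4. Without L4 replicate 2, both L4 values were below all L3 values. The edgeR log2 fold change was 0.24 (SE 1.11) with an adjusted p of 0.904, and it was -0.75 without that library. Its hairpin had a free energy of -51.1 kcal/mol and held the mature sequence whole.

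The candidates PC-3p-5191_869, PC-3p-5671_782 and PC-3p-30535_109 are nested forms of 21, 22 and 23 bases with the same start, so they share a source. Together they took 0.284%, 0.615% and 0.287% of the L3 libraries and 0.361%, 0.157% and 0.236% of the L4 libraries, which overlapped. PC-3p-5671_782 alone was separated on shares, at 0.0933%, 0.163% and 0.0956% in L3 and 0.0688%, 0.0322% and 0.0606% in L4. On normalized counts it overlapped, at 27.7, 38.5 and 20.04 in L3 and 26.8, 13.05 and 19.6 in L4.

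The 20 miRNAs counted in all 6 libraries held 97.8% to 98.8% of the counts in L3 and 96.3% to 98.6% in L4. Of those not yet described, bma-miR-57 was at 215, 448 and 229 normalized counts in L3 and 380, 826 and 281 in L4, and overlapped. bma-miR-279_R+1 was at 97.5, 26.2 and 72.2 in L3 and 47.3, 214 and 35.1 in L4, with L4 replicate 2 the highest and L3 replicate 2 the lowest. The candidate PC-3p-15043_251 was at 84.2, 101 and 172 in L3 and 32.8, 9.22 and 103 in L4, so that it was lowest in L4 replicates 1 and 2. The last, bma-miR-100c_R+1_1ss12CT, was at 824.6, 467 and 537 in L3 and 798, 379 and 559 in L4. None of these 4 was separated between the stages.

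The direction of many small stage differences rested on how the libraries were scaled. The size parameters of L4 were 4.73 times those of L3 and the totals 7.17 times (geometric means), a gap of 1.52 times. With the deposited size parameters, 33 of the 48 miRNAs counted at both stages were higher in L4, with a median log2 fold change of 0.37. Scaling to the total gave a median of -0.12 with 22 of 48 higher, the median of ratios gave 0.10 with 27, and TMM gave -0.58 with 17. The values of single miRNAs moved by a median of -0.63, -0.35 and -1.16 under these scalings. The values of the 14 miRNAs with a printed fold change kept their sign in all but bma-miR-228 (-0.01 under TMM) and PC-3p-5433_825 (-1.18, -0.48 and -0.17 under TMM, totals and ratios). bma-lin-4 was at 0.11 under TMM, 0.58 under totals and 0.83 under ratios, and PC-5p-7293_584 was at -2.70, -2.45 and -2.21.

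**Figure D4:**
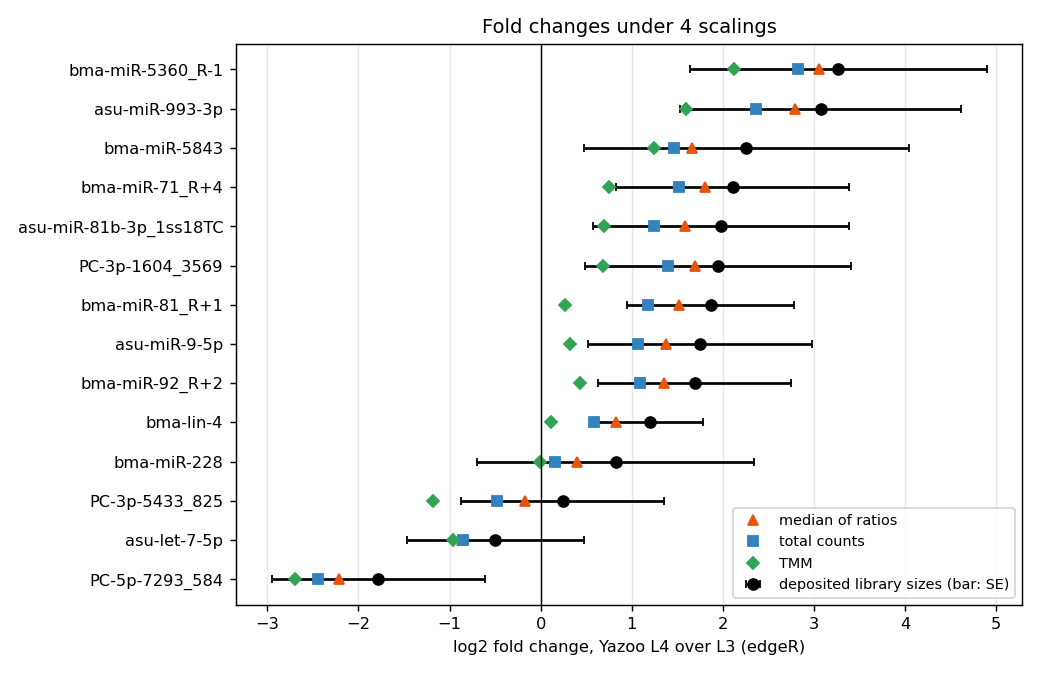
The horizontal axis is the edgeR log2 fold change of Yazoo L4 over L3 for 14 miRNAs, and the markers are 4 ways of scaling the libraries, with bars for the SE under the deposited sizes. All values under TMM (green diamonds) lie to the left of those under the deposited sizes (black circles), and PC-5p-7293_584 is the lowest under each scaling.

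More miRNAs were counted in L4 than in L3, and at equal depth this rested on the lowest count admitted. The L3 libraries held 39, 44 and 32 miRNAs and the L4 libraries 63, 84 and 52. At an equal depth of 5230 counts, the numbers expected with 5 or more counts were 22.7, 28.4 and 32 in L3 and 23.0, 28.0 and 27.0 in L4, so the stages overlapped. With 10 or more counts they were 18.6 ± 1.33 (SD, n = 3) and 18.9 ± 2.47 (SD, n = 3). With 1 or more counts they were 38.1, 43.3 and 32 in L3 and 46.0, 55.3 and 46.1 in L4, with every L4 library above every L3 library. Only 3 of the 314 Yazoo values above 0 were under 5, so miRNAs with 1 to 4 counts are mostly missing from the L3 libraries in this last comparison, while in the deeper L4 libraries the same listing limit falls at a lower share. Over all libraries 48 miRNAs were counted at both stages, 64 in L4 only and 17 in L3 only. Of the 17, all were in a single library and 16 were predicted candidates. Of the 64 in L4 only, 8 were in more than 1 library, with bma-miR-87a_R+1 the only one in all 3.

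L4 replicate 2 was also the source of most known miRNAs found in a single library. It held 32 of the 73 single-library miRNAs, and 21 of the 23 known ones. The 21 had 5 to 147 counts, and 17 were also counted in a Missouri library. At their share in L4 replicate 2, 9 of them would have had 5 or more counts in L4 replicate 1 and 3 of them in L3 replicate 2, where all were listed at 0. Leading these were bma-miR-9-3p with 147 counts, bma-miR-307_1ss22GA with 92 and hpo-miR-10078-5p_1ss10TC with 90.

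**Figure D5:**
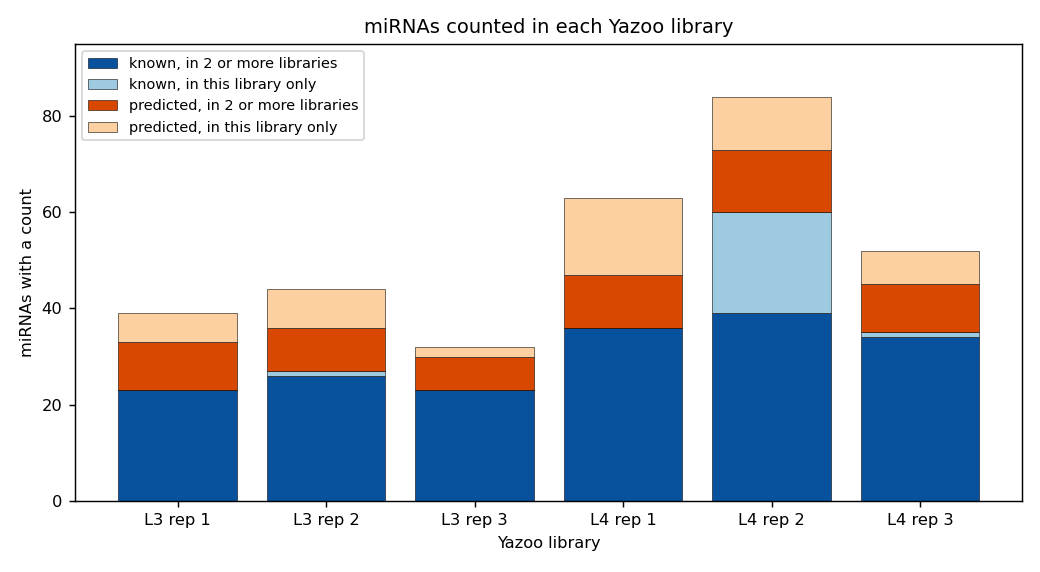
Bars give the number of miRNAs with a count in each Yazoo library (vertical axis), split into known miRNAs and predicted candidates and into those found in that library alone and those found in more. L4 replicate 2 has 84 miRNAs, of which 21 are known miRNAs found in no other Yazoo library.

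The 66 predicted candidates, which match the genome but no known miRNA, were rarer than the 63 known miRNAs. Of the candidates 50 were in a single library, with at most 23 counts, and 27 were counted in Missouri, beside 59 of the known. Only 30.3% started with T, beside 50.8% of the known, and 13 held more than 80% A and G, beside 0 of the known. Their mature sequence was found whole in the deposited hairpin for 29 of 66, beside 51 of 55 known miRNAs with a hairpin. The median predicted free energy was -23.7 kcal/mol, beside -33.7. They took 2.40%, 4.95% and 5.89% of the L3 libraries and 1.45%, 2.57% and 1.99% of the L4 libraries, which overlapped in that L4 replicate 2 lay above L3 replicate 1.

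Some candidates were forms of known miRNAs. PC-3p-59172_50 holds all 22 bases of bma-miR-281-3p_1ss10AG and 1 more, and PC-3p-470003_6 does the same for bma-miR-2c_R+1_1ss20TC. PC-3p-95261_28 comes from the opposite arm of the asu-miR-9-5p hairpin and carries the seed TAAAGCT of bma-miR-9-3p. In all, the 129 miRNAs had 112 seeds, of which 9 were shared by 26 miRNAs, and these 26 took 58.8% to 82.3% of the counts of a library.

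The stage difference of Yazoo was compared with that of Missouri in the same fit. edgeR called 0 of 129 (0%) for the difference between the strains, and 3 (2.33%) had an unadjusted p under 0.05, with a smallest adjusted p of 1.00. The 3 were ppc-miR-1_R+1, bma-miR-87b_R+2 and PC-3p-115272_22. DESeq2 and limma called 0 as well, with 1 and 2 at the unadjusted threshold, under both pseudocounts of limma. ppc-miR-1_R+1 was at 0, 52.1 and 0 normalized counts in Missouri L3 and at 191, 128 and 546 in Missouri L4, beside the overlapping Yazoo stages given above. Its difference between the strains was -3.71 on the log2 scale (SE 1.80, unadjusted p 0.0393). Without Missouri L3 replicate 2, the single Missouri L3 library in which it was counted, edgeR called it with an adjusted p of 0.0290, and no fold is given there because both remaining libraries are at 0.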

How the data were processed

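Small RNA of 18 to 30 bases from cell-free medium was sequenced, 1 library per sample. As the authors describe, low-quality reads, adapters and Rfam matches were removed and reads were matched to nematode miRNAs of miRBase release 21; for the aligner and the genome build nothing is stated. The deposited estimated counts are not whole where a read was split between sequences (28 Yazoo values before lines of the same name were summed). Values still not whole after summing were rounded for the count tests. The deposited normalized counts (signal, counts over the size parameter of the library) were used as the authors gave them, as were the deposited free energies. The 186 lines were reduced to 182 miRNAs by summing 4 names that had 2 lines; 1 line was not analysed here.

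edgeR 4.0.16 (quasi-likelihood, R 4.3.3) was fitted to all 12 libraries with 1 mean per strain and stage and the deposited size parameters as effective library sizes. p-values were adjusted over the 129 Yazoo miRNAs at a threshold of 0.05. The edgeR fold changes are the unshrunken ones. Each SE beside them was derived as the size of the fold change over the square root of the F value of its test. DESeq2 1.42.0, limma 3.58.1 (pseudocounts 1 and 10), other scalings, a filter, a replicate block and each library left out were alternatives. The fits were tested on simulated data with large changes and a smaller spread than that of these data. For these data the common dispersion, edgeR's measure of the spread between libraries, was 3.06. The simulation therefore does not tell which stage differences could have been found here. Yazoo depth was 5230 to 180153 counts. The members, lists and rule for named miRNAs were chosen with earlier results of these data known. The rule named miRNAs counted in all 6 libraries, separated between stages, with an unadjusted p under 0.05, confined to a single stage in at least 2 libraries, in a list, or named by the study; others named were chosen after their values were seen.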

Additional observations from a re-analysis of the deposited data

How the results depend on the processing

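The count of 0 called miRNAs for Yazoo L4 against L3 was the same in all 23 alternatives, including the replicate block, which left 1 miRNA higher at an unadjusted p under 0.05 in place of 6. L3 and L4 libraries of the same number had an r of 0.01, 0.17 and 0.14 over 54 miRNAs, and those of unlike number -0.30 to 0.16. With 3 libraries centred on the mean of each stage, these values cannot decide whether the numbers are pairs. The main test left them unpaired. Leaving out a library gave 0 to 1 called for the difference between the strains. The count separated with L4 above was 2 on shares, 1 with TMM and 4 with the median of ratios. It was 14 to 21 when a Yazoo library was left out. The count with L4 below was 2, 3 and 2 under these scalings, and 1 to 4 with a library left out. Leaving out a library sets 2 libraries against 3, so a separated miRNA stays separated and neither count could fall. The rise is therefore no result about the library left out. The highest counts, 21 above and 4 below, came without L4 replicate 3. Of 315 alternative fold changes of 14 miRNAs, 305 kept their sign. Those reversed were asu-let-7-5p without L3 replicate 1 or L4 replicate 2 (range -2.86 to 0.24 over libraries left out), bma-miR-228 with TMM (-0.0124), and PC-3p-5433_825 with TMM (-1.18), totals (-0.48), median of ratios (-0.17), limma (-0.0290 and -0.0212), the replicate block (-0.0407) and without L4 replicate 2 (range -0.75 to 0.59 over libraries left out); the cause was not tested. At equal depth, L4 minus L3 was -1.71 miRNAs with 5 or more counts and 11.3 with 1 or more. The 5230 counts of L3 replicate 3 limit what could be seen in L3.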
